A study of Caenorhabditis elegans with 15 samples.

Results

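The *dod* and *dct* genes described here, *dod-3*, *dod-6*, *dod-17*, *dod-19* to *dod-24* and *dct-18*, are 10 of the 20483 genes measured by mRNA sequencing of whole nematodes. They were chosen by name and not by a rule on their values, though with earlier results of these data known. All 10 were found by gene identifier. The 3 strains were *age-1(hx546); gas-1(fc21)* animals (double mutants in the following), *gas-1(fc21)* single mutants and wild-type (wt) animals, with 5 biological replicates each, at the L4 stage per the sample labels, while the RNA protocol in the study's methods names young adults. Both mutant strains carried *gas-1(fc21)*, an allele of a respiratory complex I subunit gene, and *age-1* single mutants were not analysed here, so that the change that goes with *age-1(hx546)* was measured only in complex I-deficient animals. Both alleles are present in every tissue, and the values are averages over whole animals, in which fewer cells of a type and less RNA per cell cannot be told apart.

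DAF-16, the FOXO transcription factor of the nematode, is held in the cytoplasm while insulin/IGF signaling (IIS) is active and enters the nucleus when it is low. The *age-1* gene encodes a lipid kinase of this pathway, and *daf-2* its receptor. The *dod* genes (downstream of *daf-16*) were named from genes whose transcripts changed when *daf-2* was lowered. Of these, *dod-3* and *dod-6* came from the set that low IIS raised, and *dod-17* to *dod-24* from the set that it lowered. Within that range *dod-18* is not a member here. It averaged 7.11 FPKM in double mutants, 6.95 FPKM in *gas-1* and 6.76 FPKM in wt animals, and no test of it is given. The *dct* genes (DAF-16/FOXO controlled, germline tumor affecting) were named from a screen of DAF-16 targets, and for *dct-18* no direction is stated here. *dod-17*, *dod-22* and *dod-24* encode proteins with a CUB-like domain, a family with many members that respond to infection. No role is given here for the proteins of the other members.

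Values were deposited as FPKM (reads per gene corrected for transcript length and library size), which correct for gene length and hold no read totals. They summed to 658126 to 702623 FPKM per library. A total of 11648 genes reached 1 FPKM in at least 5 of the 15 libraries and were tested with limma on log2(FPKM + 0.1), at a 5% false discovery rate. The median change over all tested genes was -0.02 in double mutants against *gas-1* animals, and 0.14 in either mutant compared to wt. The summed level of 20 sperm genes set 4 libraries apart, with 46.6 and 50.7 FPKM in double mutant replicates 2 and 5 (74.1 to 83.8 in the other libraries of the strain), 52.3 FPKM in *gas-1* replicate 2 (60.8 to 71.2 in the others) and 46.02 FPKM in wt replicate 3 (66.1 to 92.3 in the others). Named here by their sperm genes, they also had the lowest sums of 6 adult cuticle genes within their strains. These were 590 and 600 FPKM in double mutant replicates 2 and 5, 606 FPKM in *gas-1* replicate 2 and 535 FPKM in wt replicate 3. Sums of 9 intestinal genes were likewise lowest in these libraries, and those of 6 oocyte genes highest. Embryonic genes summed highest in them in wt and in double mutants, but not in *gas-1*. The *gas-1* transcript averaged 221 FPKM in double mutants, 219.5 FPKM in *gas-1* and 115.0 FPKM in wt animals, and *age-1* averaged 3.88, 3.79 and 4.53 FPKM in the same order of strains. Both alleles are point mutations, so these levels do not show the alleles themselves. The *gas-1* level did set every mutant library (204 to 234 FPKM in double mutants, 190 to 245 FPKM in *gas-1*) apart from every wt library (95.7 to 122.5 FPKM). *age-1* levels of the mutants overlapped, so they do not tell the mutants apart. Of the genes that mark other tissues of the whole animal, 9 intestinal and 6 oocyte genes were above 0 in every library. In double mutants, *gas-1* and wt, the oocyte gene *rme-2* averaged 550, 670 and 927 FPKM. The yolk gene *vit-2* averaged 87212, 55024 and 34079 FPKM, and the adult cuticle gene *col-19* 732, 762 and 811 FPKM. Whether the animals were L4 larvae or young adults was not tested.

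The members spanned a wide range of abundance. Over the 15 libraries, *dct-18* was the highest of them with a mean of 154 FPKM, followed by *dod-19* with 28.5 FPKM, *dod-23* with 28.0 FPKM and *dod-24* with 19.6 FPKM. *dod-17*, *dod-3* and *dod-6* averaged 14.1, 13.8 and 12.79 FPKM. The ranges over libraries of *dod-19* (16.6 to 43.3 FPKM), *dod-23* (22.2 to 37 FPKM) and *dod-24* (10.9 to 24.8 FPKM) overlapped, as did those of *dod-17*, *dod-3* and *dod-6*. *dod-22* averaged 3.41 FPKM, and it reached 1 FPKM in the 10 mutant libraries and in no wt library. *dod-20* and *dod-21*, with means of 0.306 and 0.0238 FPKM, reached 1 FPKM in no library. Thus 8 of the 10 members were tested, and *dod-22* was among these only through the mutant libraries.

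**Figure D1:**
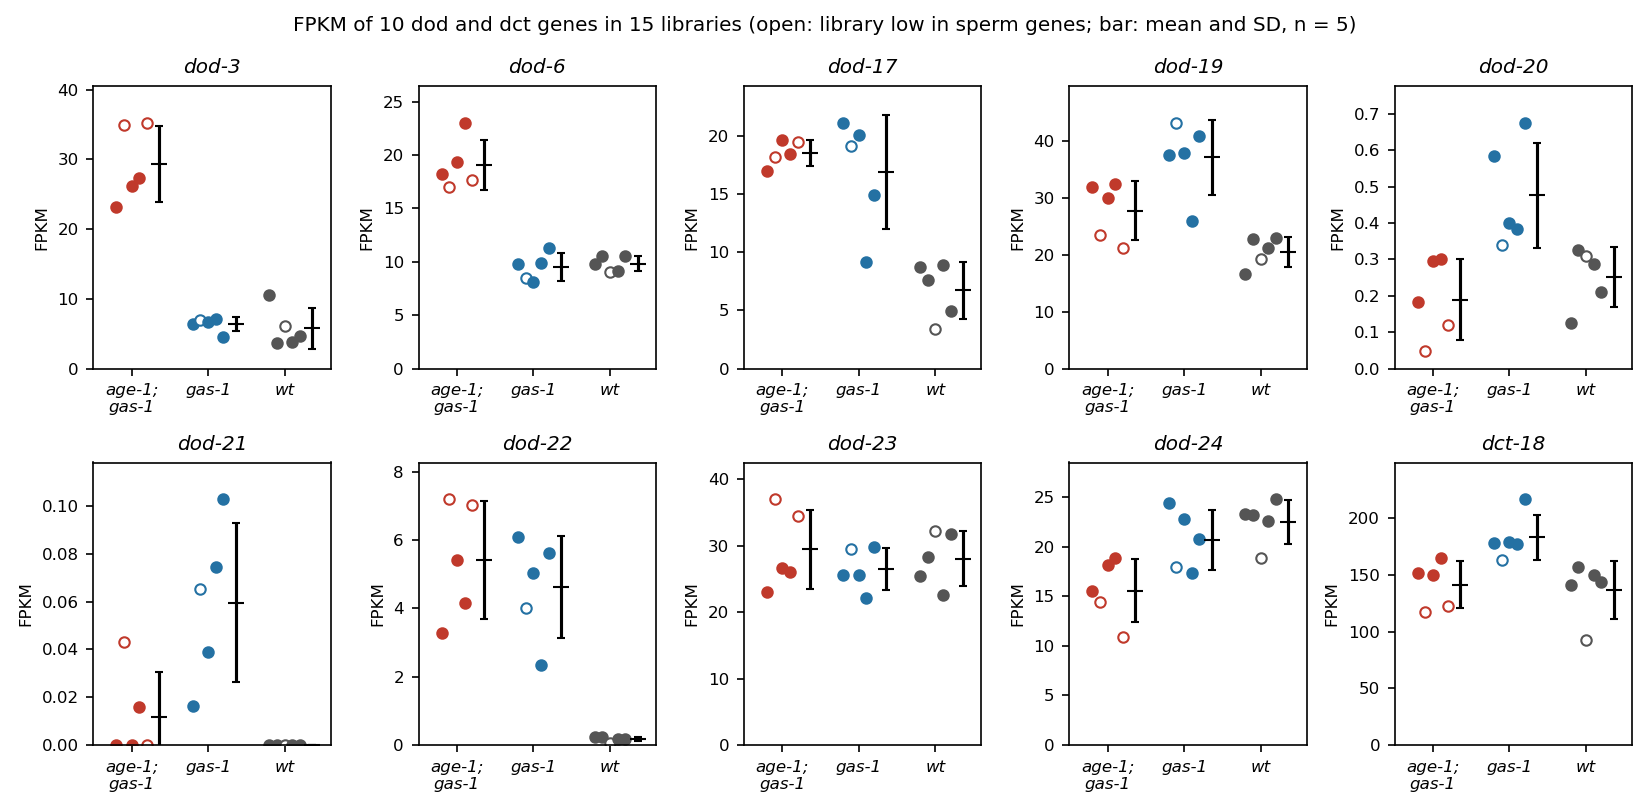
FPKM of each of the 10 members in double mutants, *gas-1* and wt libraries (5 points per strain, open points for the 4 libraries low in sperm genes; black bars show the mean and SD), each panel with its own linear axis from 0. *dod-3* and *dod-6* stand apart in double mutants, *dod-17* and *dod-22* are higher in both mutants than in wt, and the 3 strains overlap for *dod-23*.

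The comparison of double mutants with *gas-1* animals asks how the members change when IIS is lowered in complex I-deficient animals. *dod-3* and *dod-6*, both from the set that low IIS raises, rose, by 4.64 and 2.00 times on the ratio of mean FPKM. *dod-24*, *dod-19* and *dct-18* fell to 0.755, 0.748 and 0.773 of their *gas-1* means. *dod-17*, *dod-22* and *dod-23* did not pass the test. Of the 8 tested members 2 rose, where 13.5% of all tested genes rose, and 3 fell, where 19.5% of all tested genes fell (33% in either direction). The median log2 fold change of the tested members was 0.16. The libraries of these strains did not overlap for 2 of the 8, *dod-3* and *dod-6*, both with every double mutant library above. Over all tested genes this share was 26.3%, with 10.6% above and 15.7% below.

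**Figure D2:**
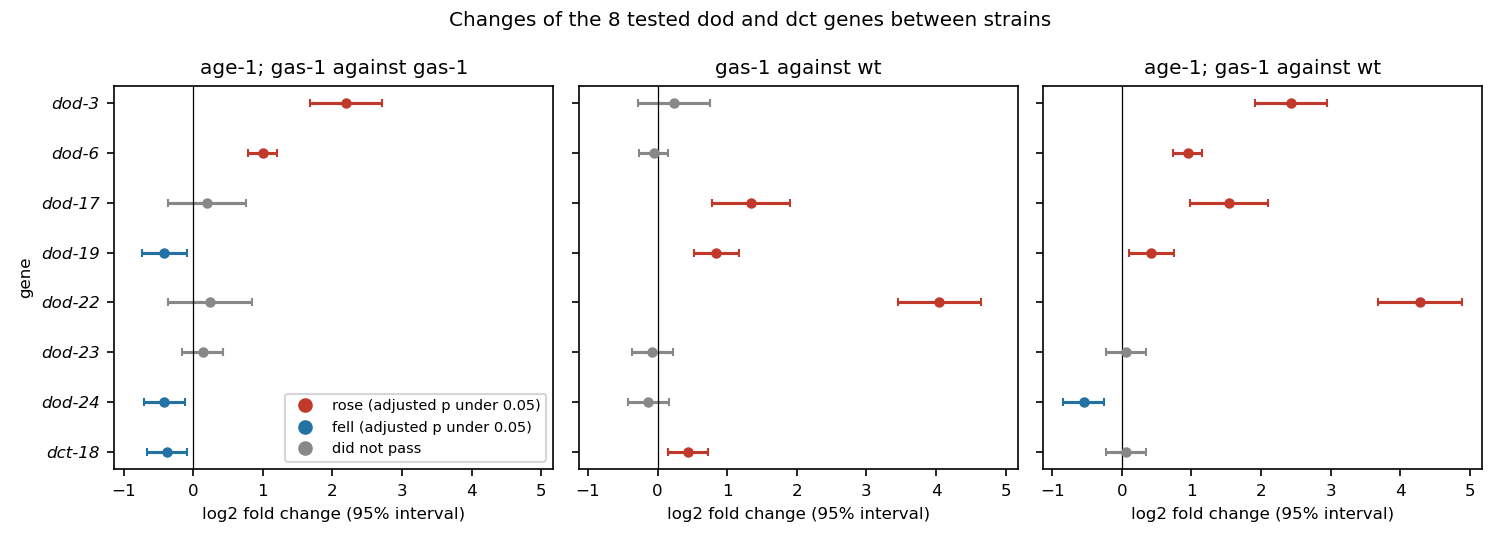
Log2 fold change, on the log2(FPKM + 0.1) scale, of the 8 tested members in the 3 comparisons (points with 95% intervals from limma; red, rose; blue, fell; grey, did not pass at an adjusted p of 0.05). In double mutants against *gas-1* animals *dod-3* lies at 2.19 and *dod-6* at 1.00, and in *gas-1* mutants against wt *dod-22* lies at 4.05.

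*dod-3* (WBGene00016052, chromosome V from 2730622 to 2731098, minus strand) had 23.1, 34.9, 26.2, 27.3 and 35.2 FPKM in double mutant replicates 1 to 5. It had 6.35, 6.96, 6.66, 7.08 and 4.59 FPKM in *gas-1*, and 10.6, 3.69, 6.03, 3.78 and 4.61 FPKM in wt libraries. Every double mutant library was above every other library, the 2 libraries low in sperm genes had the highest values of that strain, and wt replicate 1 stood above the *gas-1* libraries. The log2 fold change was 2.19 in double mutants against *gas-1* animals (SE 0.24, limma adjusted p = 1.5e-05) and 2.43 compared to wt (adjusted p = 5.5e-07 from limma). Without the 4 libraries low in sperm genes the difference between the mutants was 2.05 (limma adjusted p = 0.00070). Between *gas-1* mutants and wt the difference was 0.24 (95% interval -0.28 to 0.76), it passed the test only when wt replicate 1 was left out (0.49, limma adjusted p = 0.024), and it turned to -0.12 after quantile normalization.

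*dod-6* (WBGene00011869, chromosome III from 10197716 to 10198352, plus strand) had 18.2, 17, 19.4, 23 and 17.7 FPKM in double mutant libraries. It had 9.79, 8.48, 8.08, 9.87 and 11.3 FPKM in *gas-1*, and 9.83, 10.5, 9.07, 9.11 and 10.5 FPKM in wt libraries. The double mutant was again apart from all other libraries, while *gas-1* and wt libraries overlapped. *dod-6* rose by 1.00 on the log2 scale in double mutants against *gas-1* animals (SE 0.097, limma adjusted p = 4.4e-06) and by 0.95 compared to wt (limma adjusted p = 6.9e-07). Compared to wt, *gas-1* mutants differed by -0.05 (95% interval -0.26 to 0.16), a difference that became -0.29 and passed the test after median-of-ratios rescaling (limma adjusted p = 0.0061) and -0.30 after quantile normalization (limma adjusted p = 0.010).

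The 3 members that fell between the mutants moved by much less than these. *dod-24* (WBGene00007875, chromosome IV from 12940106 to 12941354, minus strand), a CUB-like gene, had 15.5, 14.4, 18.2, 18.9 and 10.9 FPKM in double mutants, 24.4, 17.9, 22.8, 17.4 and 20.8 FPKM in *gas-1*, and 23.3, 23.2, 18.8, 22.6 and 24.8 FPKM in wt libraries. The double mutant libraries were mostly the lowest, and the ranges of all 3 strains overlapped. It fell by 0.42 on the log2 scale compared to *gas-1* (SE 0.14, limma adjusted p = 0.031) and by 0.55 compared to wt (limma adjusted p = 0.0023). *gas-1* mutants differed from wt by -0.13 (95% interval -0.43 to 0.16), and by -0.37 after median-of-ratios rescaling, which passed the test (limma adjusted p = 0.011). No other tested member was lower in the double mutant than in both other strains at this threshold.

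*dod-19* (WBGene00022644, chromosome V from 411782 to 414759, minus strand) had 31.9, 23.5, 30.1, 32.4 and 21.2 FPKM in double mutants, 37.7, 43.3, 38, 26 and 41 FPKM in *gas-1*, and 16.6, 22.8, 19.2, 21.2 and 23 FPKM in wt libraries. *gas-1* mutants were highest, with no overlap with wt, and the double mutant lay between them, overlapping both. Compared to *gas-1*, *dod-19* fell by 0.42 in double mutants (SE 0.15, limma adjusted p = 0.046). It rose by 0.84 in *gas-1* mutants against wt (SE 0.15, limma adjusted p = 0.00021) and by 0.42 in double mutants against wt (limma adjusted p = 0.019). The last of these did not pass after median-of-ratios rescaling (0.14, limma adjusted p = 0.37, or 0.31 and 0.068 with ratios over tested genes only), after quantile normalization, or without wt replicate 1 or double mutant replicate 4.

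*dct-18* (WBGene00010266, chromosome II from 12931873 to 12933521, plus strand) followed the same order of strains. It had 152, 117, 149, 165 and 123 FPKM in double mutants, 178, 163, 179, 177 and 217 FPKM in *gas-1*, and 141, 157, 92.5, 149.6 and 143 FPKM in wt libraries. All *gas-1* libraries were above all wt libraries, wt replicate 3 was the lowest of the 15, and the double mutant overlapped with both strains. *dct-18* fell by 0.38 in double mutants against *gas-1* animals (SE 0.14, limma adjusted p = 0.046) and rose by 0.44 in *gas-1* mutants against wt (SE 0.14, limma adjusted p = 0.011), where median-of-ratios rescaling left 0.20 (limma adjusted p = 0.12). The double mutant differed from wt by 0.06 (95% interval -0.23 to 0.35), and by -0.22 after median-of-ratios rescaling, without passing the test in either case.

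These 3 lower values depended on single libraries and settings. With upper-quartile rescaling 0 members fell, and likewise 0 when *gas-1* replicate 1 or 3 or double mutant replicate 2 or 5 was left out. The count was also 0 when the replicate number was added to the fit as a block. The count was 1 without *gas-1* replicate 5, double mutant replicate 3 or wt replicate 4 or 5, and 1 with no mean-variance trend. The libraries low in sperm genes, double mutant replicates 2 and 5, were the lowest of their strain for *dod-6*, *dod-19*, *dod-20*, *dod-24* and *dct-18* and the highest for *dod-3*, *dod-22* and *dod-23*. Without the 4 libraries low in sperm genes *dct-18* still fell (-0.27, limma adjusted p = 0.017), whereas *dod-24* (-0.28, limma adjusted p = 0.068) and *dod-19* (-0.16, limma adjusted p = 0.44) did not pass.

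**Figure D3:**
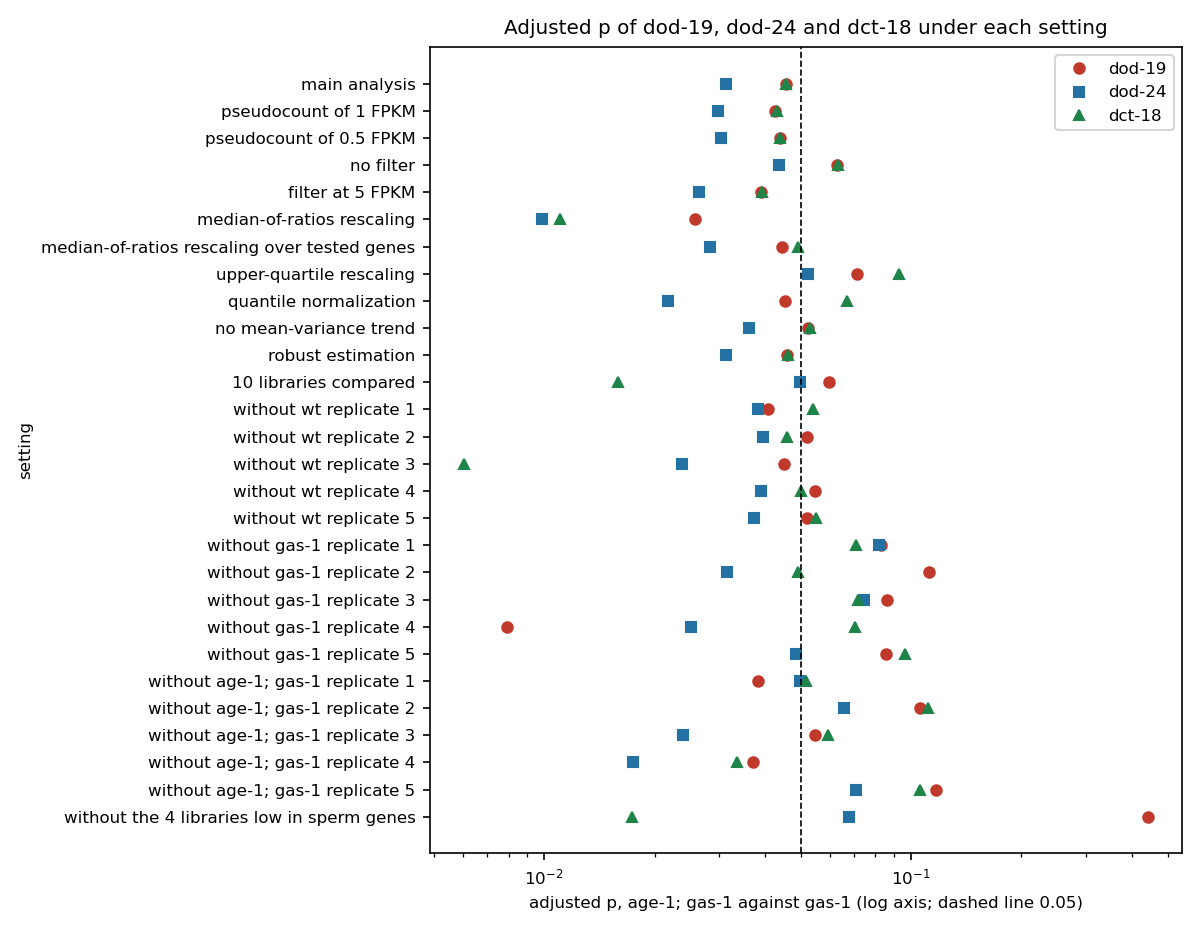
Adjusted p from limma for *dod-19*, *dod-24* and *dct-18* in double mutants against *gas-1* animals (log axis, dashed line at 0.05), with the analysis as reported at the top and one line below it per alternative or library left out, except the fit with a replicate block, which is not plotted. In that fit 0 of these genes passed. *dod-19* and *dct-18* lie to the right of the line in 15 of the 27 plotted alternatives each and *dod-24* in 6, with the highest value, 0.44, for *dod-19* without the 4 libraries low in sperm genes.

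The comparison of *gas-1* mutants with wt asks what complex I deficiency does to the members. The CUB-like genes *dod-22* and *dod-17* rose by 25.8 and 2.51 times on the ratio of mean FPKM, *dod-19* rose by 1.81 times and *dct-18* by 1.34 times. Of the 8 tested members 4 rose, where 44% of all tested genes rose, and 0 fell, where 24.6% of all tested genes fell (68.6% in either direction). At an unadjusted p under 0.05 from limma, the only tool run, 0 were lower as well. Every *gas-1* library was above every wt library for these 4, against 31.7% of all tested genes above, 18.8% below and 50.5% in either direction. In double mutants against wt 5 of the 8 rose (44.5% of all tested genes), namely *dod-3*, *dod-6*, *dod-17*, *dod-19* and *dod-22*, and 1 fell (31.2% of all tested genes; 75.7% in either direction), *dod-24*. There, 4 of the 8, all but *dod-19* of those that rose, had every double mutant library above every wt library, against 35.2% of all tested genes above, 27% below and 62.2% in either direction. Both sets of counts against wt hold *dod-22*, which passed the filter only through the mutant libraries, so its part in them was fixed beforehand. The median log2 fold change of the tested members was 0.34 in *gas-1* and 0.69 in double mutants against wt, both of which share the wt libraries. Rescaling by the median of ratios gave a median over all genes of -0.10 in *gas-1* mutants and -0.14 in double mutants against wt, in place of 0.14 in both. With it, 29.3% of all tested genes rose and 39.8% fell in *gas-1* mutants against wt, and 31.9% rose and 43% fell in double mutants against wt. Quantile normalization gave 26.2% and 38% in *gas-1* mutants, and 28.8% and 42.9% in double mutants.

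*dod-22* (WBGene00010125, chromosome IV from 12965374 to 12967392, plus strand) showed the widest difference from wt of the tested members. It had 3.29, 7.20, 5.41, 4.17 and 7.04 FPKM in double mutants, 6.09, 4.01, 5.04, 2.35 and 5.62 FPKM in *gas-1*, and 0.240, 0.223, 0.0696, 0.185 and 0.177 FPKM in wt libraries. Each mutant library was above each wt library, and the mutants overlapped. The log2 fold change was 4.05 in *gas-1* mutants (SE 0.28) and 4.29 in double mutants compared to wt. As the wt values were near the pseudocount, the size depended on it, and with a pseudocount of 1 FPKM the changes were 2.21 and 2.403. Having passed the filter only where it was high, *dod-22* was bound to be among the genes that differ from wt. Its calls against wt are therefore no test of a difference, and no p is given for them. Between the mutants, the difference was 0.24 (95% interval -0.37 to 0.84), and -0.10 without the 4 libraries low in sperm genes.

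*dod-17* (WBGene00010745, chromosome IV from 12976303 to 12978343, plus strand) had 17, 18.2, 19.7, 18.5 and 19.5 FPKM in double mutants, 21.1, 19.1, 20.1, 9.19 and 15 FPKM in *gas-1*, and 8.76, 7.58, 3.41, 8.95 and 4.93 FPKM in wt libraries. The double mutant varied little (18.6 ± 1.10 FPKM, SD, n = 5), whereas *gas-1* replicate 4 lay just above the highest wt library. *dod-17* rose by 1.35 in *gas-1* (SE 0.26, limma adjusted p = 0.00041) and by 1.54 in double mutants (limma adjusted p = 9.0e-05) compared to wt. Between the mutants the difference was 0.19 (95% interval -0.37 to 0.75), and -0.011 without *gas-1* replicate 4. That library was also the lowest of its strain for *dod-19*, *dod-22*, *dod-23* and *dod-24*.

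*dod-23* (WBGene00009898, chromosome II from 8398161 to 8399164, minus strand) passed the test in no comparison. It had 23, 37, 26.7, 26.1 and 34.5 FPKM in double mutants, 25.6, 29.5, 25.6, 22.2 and 29.9 FPKM in *gas-1*, and 25.4, 28.3, 32.1, 22.5 and 31.8 FPKM in wt libraries. All 3 ranges overlapped, and the libraries low in sperm genes were the highest in double mutants and in wt. The differences were 0.13 between the mutants (95% interval -0.16 to 0.43), -0.07 in *gas-1* (-0.37 to 0.22) and 0.06 in double mutants (-0.23 to 0.35) compared to wt, where the last turned to -0.22 after median-of-ratios rescaling.

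*dod-20* and *dod-21* were below 1 FPKM throughout, and how many reads their values rest on is unknown. *dod-20* (WBGene00015259, chromosome V from 422433 to 424177, plus strand) had 0.183, 0.0474, 0.297, 0.302 and 0.119 FPKM in double mutants, 0.583, 0.339, 0.401, 0.384 and 0.676 FPKM in *gas-1*, and 0.126, 0.325, 0.309, 0.289 and 0.210 FPKM in wt libraries. All 5 *gas-1* libraries were above all libraries of the other strains, which overlapped each other. *gas-1* mutants had the highest mean for *dod-19* and *dct-18* too, but with the double mutant above wt in the means, whereas the mean of *dod-20* was lowest in the double mutant. The two-sided exact permutation p was 0.0079, the smallest that 5 against 5 libraries allow, both for double mutants against *gas-1* animals (difference of mean log2(FPKM + 0.1) of -1.05) and for *gas-1* mutants against wt (0.71), and 0.29 for double mutants against wt. *dod-21* (WBGene00007873, chromosome IV from 12936738 to 12937988, plus strand) had 0, 0.0433, 0, 0.0160 and 0 FPKM in double mutants and 0.0165, 0.0652, 0.0390, 0.0747 and 0.103 FPKM in *gas-1* libraries, and was listed at 0 in all 5 wt libraries. It was detected in every *gas-1* library and in 2 double mutant libraries, with exact permutation p of 0.032 between the mutants, 0.0079 for *gas-1* and 0.44 for double mutants against wt. These 6 exact tests were not adjusted. In limma without the filter on low values, the same 4 comparisons passed (adjusted p from 0.00083 to 0.042).

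Some of the members lie close together in the genome. On chromosome IV, *dod-21*, *dod-24*, *dod-22* and *dod-17* lie within 41.6 kb that hold 13 annotated protein-coding genes, 5 of which were tested. *F55G11.8*, 729 bp upstream of *dod-22* on the same strand, had means of 5.56 ± 0.434 FPKM in double mutants, 4.37 ± 0.689 FPKM in *gas-1* and 1.13 ± 0.340 FPKM in wt (SD, n = 5 each). It rose by 1.88 in *gas-1* (limma adjusted p = 2.0e-07) and by 2.23 in double mutants against wt, and its difference of 0.35 between the mutants did not pass (limma adjusted p = 0.11). These are the calls of *dod-17*, while those of *dod-22* against wt were fixed by the filter. *F55G11.4*, 700 bp before *dod-17* on the same strand, had 14.5 ± 3.63, 3.68 ± 0.483 and 4.66 ± 0.642 FPKM in double mutants, *gas-1* and wt. It rose by 1.92 between the mutants (limma adjusted p = 1.2e-06) and its -0.33 in *gas-1* mutants against wt did not pass (limma adjusted p = 0.083), the calls of *dod-3* and *dod-6* rather than those of its neighbour. *dod-24* in the same interval fell.

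**Figure D4:**
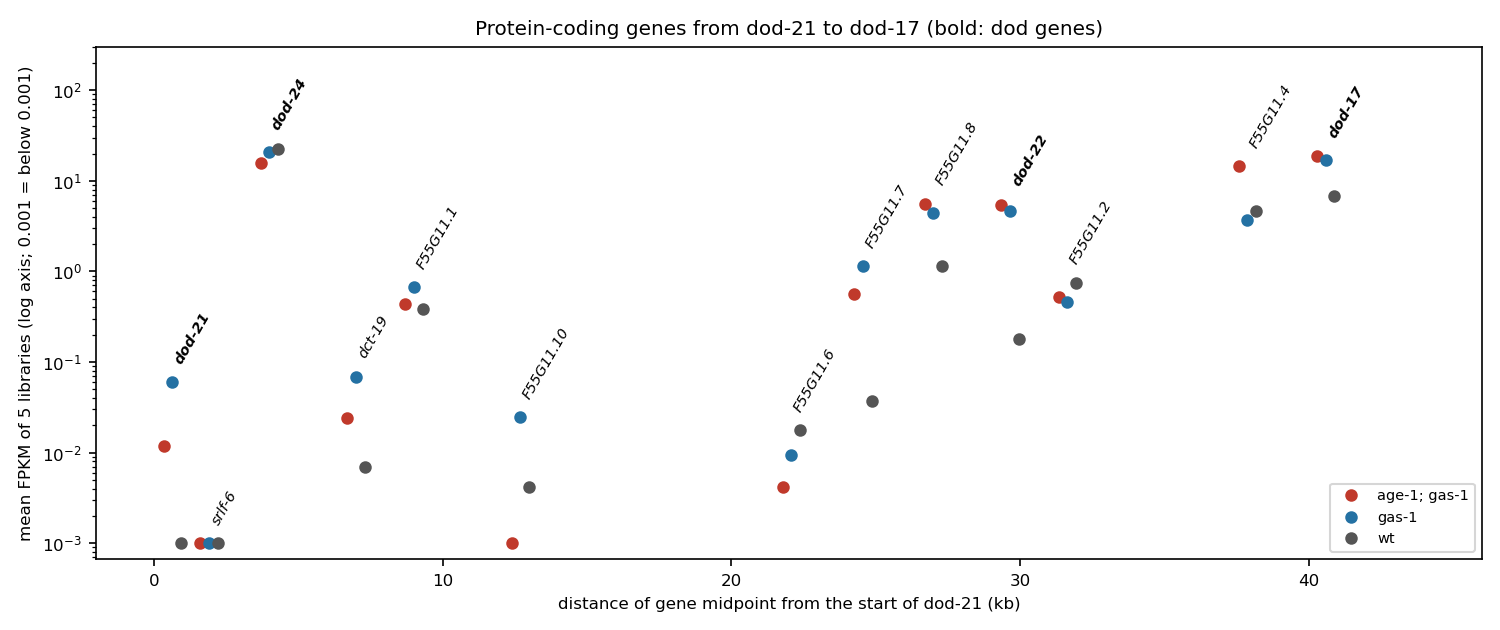
Mean FPKM (log axis, 5 libraries per strain; values below 0.001 are drawn at 0.001) of the 13 protein-coding genes from *dod-21* to *dod-17* against the distance of their midpoint from the start of *dod-21*. *dod-22*, *F55G11.8* and *dod-17* are higher in both mutants than in wt, *F55G11.4* is high only in the mean of double mutants, and *dod-24* is lowest there.

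Just past *dod-17*, *K10D11.2* averaged 9.44 ± 3.06 FPKM in double mutants, 2.46 ± 1.00 FPKM in *gas-1* and 0.0498 ± 0.0158 FPKM in wt animals. It rose in double mutants against *gas-1* animals (1.95, limma adjusted p = 0.00026). Like *dod-22* it reached 1 FPKM in no wt library and passed the filter only through the mutants, so its difference from wt is given by these means alone. On chromosome V, *dod-19* and *dod-20* lie within 12.4 kb, with *irg-8* and *Y39D8A.1* between them. *irg-8* averaged 14.9 ± 7.15, 30.7 ± 4.15 and 39.6 ± 5.45 FPKM in double mutants, *gas-1* and wt, and fell by 1.19 between the mutants (limma adjusted p = 0.0059). *Y39D8A.1* averaged 1.94 ± 0.615, 4.05 ± 0.273 and 2.77 ± 0.729 FPKM in double mutants, *gas-1* and wt, the order of the *dod-20* means but not of the *dod-19* means. It fell by 1.08 between the mutants (limma adjusted p = 0.0021) and rose by 0.58 in *gas-1* mutants against wt (limma adjusted p = 0.034). By contrast, the direct neighbours of *dod-3* (*str-33* and *srg-57*) averaged at most 0.0156 FPKM in any strain. *skpo-1*, 1135 bp from *dod-23*, averaged 137, 125 and 121 FPKM in double mutants, *gas-1* and wt and, like *dod-23*, passed the test in no comparison. Of the neighbours of *dod-6*, *epac-1* was not tested, and *T20G5.8*, with 4.98, 5.57 and 7.92 FPKM in double mutants, *gas-1* and wt, fell by 0.49 in *gas-1* mutants (limma adjusted p = 0.00080) and by 0.67 in double mutants (limma adjusted p = 4.4e-05) compared to wt. *dct-18* and *dod-23* lie on the chromosome of *age-1*, at 1.40 and 3.12 Mb from it. No annotated protein-coding gene overlaps a member. Whether reads were shared between the CUB-like genes of chromosome IV, which encode a common domain, was not tested.

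How alike the members were across the 15 libraries was described by Pearson's r of log2(FPKM + 0.1), which the differences between strains dominate. *dod-17* and *dod-22* had r = 0.92 over all libraries, and 0.71 once each strain's mean was removed. *dod-3* and *dod-6*, in contrast, had r = 0.86 over all libraries and -0.33 within strains, the double mutant libraries highest in *dod-3* being those lowest in *dod-6*. *dod-24* and *dct-18* had 0.62 within strains, *dod-19* and *dod-24* 0.61, and *dod-19* and *dct-18* 0.45. Members that rose between the mutants had within-strain values of that size too, 0.65 for *dod-6* with *dct-18* and -0.65 for *dod-3* with *dod-19*. All of these are descriptions over libraries that share the same strains.

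Among the 11648 tested genes, those most like a member over the 15 libraries differed from member to member. For *dod-3* they were *Y110A2AL.2* (r = 0.97) and *F56D6.9* (r = 0.95), which were below 0.2 FPKM in the means of *gas-1* and wt and at 2.52 and 2.71 FPKM in double mutants. For *dod-6* they were *spig-1* (r = 0.99) and the galectin gene *lec-4* (r = 0.98), and *lec-4* averaged 32.6, 20.1 and 20.6 FPKM in double mutants, *gas-1* and wt. *dod-22* was closest to the carboxylesterase gene *cest-8* (r = 0.99), with 15.6, 14.4 and 0.872 FPKM in the same order, and to the cytochrome P450 gene *cyp-33C4* (r = 0.99). *dod-17* was closest to *clhm-1* (r = 0.94), an ion channel gene, and *cex-1* (r = 0.94). For *dod-19* the closest were *hpo-6* (r = 0.93) and *Y51H4A.25* (r = 0.92), and for *dct-18* *scav-4* (r = 0.98), of the scavenger receptor family, and *F15G9.1* (r = 0.97). *F15G9.1* averaged 211, 299 and 179.6 FPKM in double mutants, *gas-1* and wt, the strain order of *dct-18*. *dod-24* came closest to *scl-3* (r = 0.89) and *W01A8.6* (r = 0.88), while for *dod-23* no gene exceeded the r of 0.80 of *Y62H9A.3*, followed by *AH9.3* (r = 0.77).

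Other genes of the pathway, from lists that hold no member, give the setting of these values. Of 20 tested genes known to be raised by DAF-16, 18 rose and 0 fell at an adjusted p of 0.05 in double mutants against *gas-1* animals, with a median log2 fold change of 1.23 (0 lower at an unadjusted p under 0.05 from limma). The superoxide dismutase gene *sod-3* averaged 3.96 ± 0.309 FPKM in double mutants and 0.896 ± 0.107 FPKM in *gas-1* animals (2.03 on the log2 scale, and it passed the filter mainly through the double mutant), *lea-1* rose by 1.32 and the lysozyme gene *lys-8* by 1.31. Also among the 18 is *cyp-35B1*, with 1.62 ± 0.672 FPKM in double mutants and 0.318 ± 0.189 FPKM in *gas-1*. It passed the filter only through the double mutant, so its rise was fixed beforehand. In *gas-1* mutants against wt 16 of the 20 already rose and 2 fell, *lys-7* (-0.99) and *fat-5* (-1.92). Among the 16, *sod-3* and *mtl-1* averaged 0.224 and 0.257 FPKM in wt and passed the filter only through the mutants. Unlike most of this list, *dod-3* and *dod-6* did not pass the test in *gas-1* mutants, a difference between genes that was not tested. Of 14 other *dct* genes, 5 were tested, and *dct-6* (0.53), *dct-7* (2.65) and *dct-11* (0.36) rose between the mutants. Of 3 tested genes other than members that low IIS is known to lower, the yolk genes *vit-5* (1.22) and *vit-2* (0.66) rose in double mutants against *gas-1* animals, and *ins-7* (0.24) did not pass. After quantile normalization 1 of the 3 rose.

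Since several CUB-like genes respond to infection, genes of the PMK-1 immune pathway were set beside them. Of 7 tested targets 5 rose and 1 fell in double mutants against *gas-1* animals, with *K08D8.5* (1.03), *C17H12.8* (1.16), *irg-4* (1.13) and the C-type lectin genes *clec-67* (1.25) and *clec-85* (0.52) among the first and *irg-5* (-1.49), below 1 FPKM in every double mutant library, the second. In *gas-1* mutants against wt 5 rose and 2 fell, *irg-4* (-1.62) and *irg-5* (-1.08), and in double mutants against wt 5 rose and *irg-5* fell (-2.57). A list of 20 genes held IIS components, the PMK-1 pathway (*tir-1*, *nsy-1*, *sek-1*, *pmk-1* and *atf-7*) and transcription factors. Of these, 6 rose and 2 fell between the mutants. *akt-2* (1.08), *daf-2* (0.57) and, of the PMK-1 pathway, *nsy-1* (0.32) and *sek-1* (0.23) were among the first. The second were the p38 kinase gene *pmk-1* (-0.97) and *hsf-1* (-0.17). *daf-16* itself averaged 102 ± 4.84 FPKM in double mutants, 106 ± 4.43 FPKM in *gas-1* and 92.7 ± 2.89 FPKM in wt (SD, n = 5 each).

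Markers of cell types moved with the strains as well. Of 9 tested intestinal genes 7 rose and 0 fell in either mutant compared to wt. At an unadjusted p under 0.05 from limma, 0 were lower as well. For comparison, 44% of all tested genes were higher in *gas-1* animals (24.6% lower) and 44.5% in double mutants (31.2% lower). *dod-17* also rose in both comparisons, whereas the rise of *dod-22* was fixed by the filter. Among the 9, *mtl-2* is also in the list raised by DAF-16, and *elt-2* and *elt-7* are in that of IIS components and transcription factors. The median change of the 9 was 0.91 in both comparisons, the value of *mtl-2* in *gas-1* and of *elt-2* in double mutants. Their summed level was 879 to 1053 FPKM in double mutants, 861 to 1128 FPKM in *gas-1* and 518 to 827 FPKM in wt libraries, and none of the 9 was at 0 in any library. After median-of-ratios rescaling 1 of the 9 fell in either comparison. Between the mutants 2 intestinal genes rose, *ges-1* (1.11) and *asp-1* (0.48), and 2 fell, *act-5* (-0.44) and *pho-1* (-0.47). All 5 tested embryonic genes rose in both mutants compared to wt, but only 3 in double mutants and 1 in *gas-1* mutants after median-of-ratios rescaling and 1 in each after quantile normalization. The adult cuticle genes *rol-6*, *bli-1* and *bli-2* rose in both mutants, 3 of 5 tested, of which *rol-6* and *bli-1* reached 1 FPKM in no wt library and passed the filter only through the mutants. The other tested genes, *col-19* (-0.07 in *gas-1*, -0.14 in double mutants) and *col-62* (0.31 and -0.75), did not pass against wt. Between the mutants 0 of the 5 passed, with a median change of -1.06. Compared to wt, 6 of 6 oocyte genes fell in double mutants and 4 in *gas-1* mutants, namely *rme-2*, *puf-5*, *puf-11* and *spn-4*. Between the mutants, where *dod-24*, *dod-19* and *dct-18* fell, 4 of the 6 oocyte genes also fell, *oma-2* (-0.55), *rme-2* (-0.28), *puf-5* (-0.24) and *puf-11* (-0.22), and 2 of the 6 after median-of-ratios rescaling. Their part in the changes of the *dod* and *dct* genes was not tested.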

How the data were processed

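Whole-animal mRNA libraries, 15 in all, started from 100 ng total RNA, used a stranded kit and gave single reads of 50 bp. The authors deposited FPKM per gene, which include their alignment, counting and scaling. Tools named in the submitters' processing notes are STAR 2.4.0h for one, with Cufflinks 2.1.1, Cuffdiff, CASAVA 1.8.2 and FastQC 0.10.1. Build, annotation and strand setting: not given in the sources used here. WBcel235 coordinates were matched by gene identifier for 20179 of 20483 genes.

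A filter kept 11648 genes that reached 1 FPKM in 5 or more libraries. With limma 3.58.1 (R 4.3.3), log2(FPKM + 0.1) of all 3 strains was fitted together, with a mean-variance trend, and p-values were adjusted by Benjamini-Hochberg over all tested genes within a comparison. Such changes understate those of low genes. Exact permutation tests served the 2 members below the filter. The members, lists, tests and alternatives were chosen with earlier results of these data known. Genes named beside the members are the 2 most alike by r, up to 3 per list with the smallest adjusted p between the mutants, and the nearest protein-coding genes. Others, such as *lys-7*, *fat-5*, *irg-4* and *daf-16*, were named after their values were seen. Depth is unknown beyond a rough estimate from the spacing of low values, in which 1 read was worth -0.38 to 0.60 on the log2 scale relative to wt replicate 1. Replicates are biological per the study, and p-values measure the spread between libraries. Simulated data served to test the fit. Alternatives covered pseudocounts, filters, scaling, variance estimation, a replicate block and libraries left out. No member's sequence was used here.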

Additional observations from a re-analysis of the deposited data

Results flagged for a closer look

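In 29 groups of 5 libraries, 3 values stood far from the rest of their strain by Dixon's ratio on log2(FPKM + 0.1), above its 95% critical value of 0.71 for 5 values. Chance puts about 1 in 20 groups past that value. *dod-3* in *gas-1* replicate 5 was at 4.59 FPKM (ratio 0.747), below the other *gas-1* libraries (6.35 to 7.08 FPKM). *dod-19* in *gas-1* replicate 4 was at 26.03 FPKM (ratio 0.728), below the others at 37.7 to 43.3 FPKM, and without this library *dod-19* fell by 0.54 in double mutants against *gas-1* animals (limma adjusted p = 0.0079). *dct-18* in wt replicate 3, a library low in sperm genes, was at 92.5 FPKM (ratio 0.796), below the others at 141 to 157 FPKM, and without this library the difference between double mutants and wt was -0.074 (limma adjusted p = 0.50).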

How the results depend on the processing

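Each member's change was recomputed under 28 alternatives, 2 of them added with the data known (without the 4 libraries low in sperm genes, and median-of-ratios rescaling over tested genes). Of 672 such values 608 kept their direction and their side of the threshold, 45 no longer passed, 4 came to pass and 15 turned in sign. *dod-3* and *dod-6* rose between the mutants in all 28 (2.04 to 2.28 and 0.93 to 1.06), as did *dod-17* in both mutants compared to wt. *dod-22* did so too, but it passed the filter only through the mutant libraries, so this is no test of its difference from wt. Of 3 members that fell between the mutants, 0 fell with upper-quartile rescaling, 1 with no mean-variance trend, 1 without the 4 libraries, 0 with the replicate block and 0 to 3 with 1 library left out. The block moved no other count of members. Whether replicate numbers pair the libraries is unclear. Of 15 same-numbered pairs of libraries, 10 correlated above 0.1 in their deviations from the strain means (-0.76 to 0.79). The pairs of replicate 1 lay at 0.30 to 0.59 and those of replicate 4 at 0.59 to 0.70. Replicate 2 had -0.71 and -0.76 beside 0.79. A library correlated best with its own number in 6 of 30 cases, each a choice among the 5 libraries of another strain. Members that fell in *gas-1* mutants against wt, 0 in the report, were 2 with median-of-ratios scaling and 1 with quantile normalization. Signs turned only where no test was passed. Between the mutants these were *dod-17* without *gas-1* replicate 4 (-0.011, and up to 0.29 with other libraries left out), and *dod-22* (-0.096) and *dod-23* (-0.026) without the 4 libraries. In *gas-1* mutants against wt they were *dod-3* with quantile normalization (-0.12) and *dod-6* without *gas-1* replicate 3 (0.0045). In double mutants against wt they were *dod-23* with median-of-ratios scaling (-0.22, or -0.056 over tested genes), quantile normalization (-0.012), without the 4 libraries (-0.088) and without wt replicate 4 (-0.015) or double mutant replicate 2 (-0.027) or 5 (-0.0022), with up to 0.14 for other libraries left out, and *dct-18* with median-of-ratios scaling (-0.22, or -0.057 over tested genes) and without wt replicate 3 (-0.074, and up to 0.12 for other libraries). The cause was not tested. The unknown read depth limits the low values of *dod-20* and *dod-21*, and of *dod-22* in wt.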
